A study of Mus musculus with 6 samples.

Results

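A set of 10 genes that identify cells of the osteoblast lineage and the marrow stroma was followed in cultures of mouse osteoclasts grown with or without verapamil. They were chosen by name, with earlier results of these data known. All 10 were found among the 16775 genes of the deposited count table: Runx2, Sp7, Alpl, Ibsp, Bglap2, Tnfsf11, Tnfrsf11b, Cxcl12, Pdgfra and Pdgfrb. Osteoclasts, the bone-resorbing cells, were differentiated from wild-type bone marrow macrophages. Control and verapamil cultures both received 30 ng/ml M-CSF, 50 ng/ml RANKL and 10% serum. The sample titles give day 5, while the labels describe medium changes up to day 7, and they state neither the dose nor the timing of verapamil, a blocker of L-type calcium channels. Replicates 1 and 3 of the control group and replicates 1, 2 and 3 of the verapamil group were compared; control replicate 2 was not analysed here. The labels do not say whether replicates were grown from different mice or dishes, and the p-values therefore rest on a spread between libraries that may be technical.

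Bone is built by osteoblasts, which arise from mesenchymal cells of the marrow stroma and not from the blood lineage that gives macrophages and osteoclasts. Runx2 commits a stromal cell to the osteoblast fate, Sp7 acts after it, and the maturing cell then makes alkaline phosphatase, bone sialoprotein and osteocalcin. Stromal cells and osteoblasts also control osteoclasts, through the cytokine RANKL (encoded by Tnfsf11) and its soluble decoy receptor osteoprotegerin (encoded by Tnfrsf11b). A marrow culture can carry such cells over, and some of the 10 genes are also known from blood-derived cells, so a level measured here does not say which cell made the RNA.

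Libraries held 20202340 to 21494523 estimated reads. The osteoclast label was checked against 10 osteoclast markers: all 10 were expressed, with a summed level of 7025 to 7703 CPM (counts scaled to a common library size, with TMM factors) in the controls and 3304 to 3454 CPM with verapamil. The 10 osteoblast and stromal genes together reached 92.9 to 110.6 CPM in the controls and 35.8 to 38.1 CPM with verapamil. In every library the summed osteoclast markers were far above these genes. The control libraries stood apart from each other for some of the 10 genes, as described below.

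Of the 10 genes, 8 were lower with verapamil, 0 were higher (0 also at an unadjusted p under 0.05, and 0 by DESeq2), Runx2 did not pass the test and Tnfsf11 was too rare to be tested. The test was edgeR's quasi-likelihood test over 12619 genes, called at a Benjamini-Hochberg adjusted p under 0.05; by the same test 25.4% of all tested genes were called, 15.4% lower and 9.99% higher. A group of 4 genes (Alpl, Ibsp, Bglap2 and Tnfrsf11b) passed the filter on low counts only through the controls, meaning that fewer than 2 verapamil libraries reached it. The filter favours a lower level with verapamil in genes that pass in this way. Of all such genes 48.2% were called lower, and the 4 of 4 called here are no support on their own. Of the 5 genes that reached the filter in both groups (Runx2, Sp7, Cxcl12, Pdgfra and Pdgfrb), 4 were lower. Of all tested genes over the filter in the verapamil libraries, whatever their controls, 13.4% were lower. Since the 10 genes were chosen with earlier results of these data known, such shares are a background and not a test of the set. By order of the libraries in CPM, 8 of the 10 genes had every verapamil library below both controls, against 26.1% of the genes in the table and 29% of the genes tested. The 8 include the 4 that passed only through the controls, for which this order is no support on its own. Among the 5 over the filter in both groups, all but Runx2 had this order. The count of 8 was 6 when any of the verapamil replicates 1, 2 and 3 was left out, 7 without control replicate 1 and 8 without control replicate 3.

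**Figure D1:**
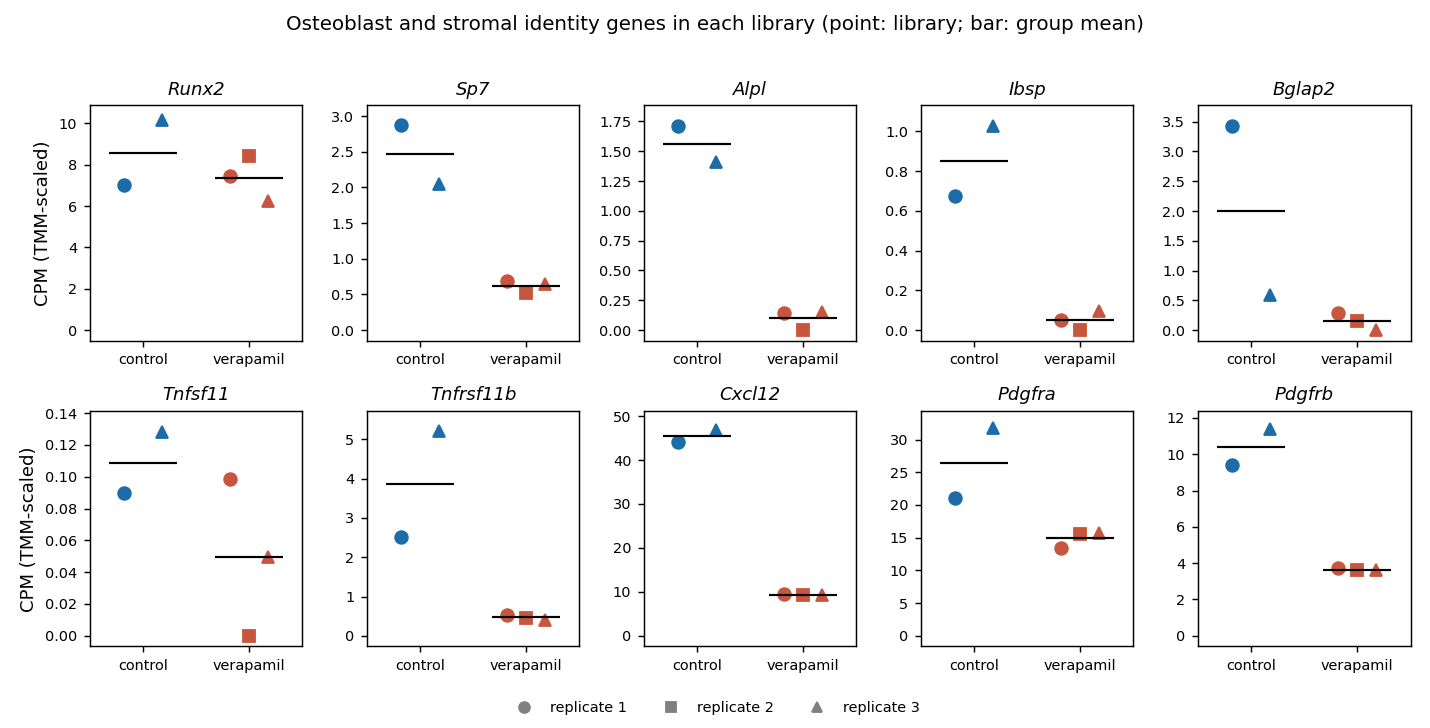
Level of each of the 10 genes in each library, in CPM after TMM scaling on a linear axis (blue: control; red: verapamil; marker shape: replicate; bar: group mean). For all genes but Runx2 and Tnfsf11, the verapamil points lie below both control points.

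The transcription factors of the osteoblast lineage were described first. Runx2 (Entrez 12393; GRCm38 chromosome 17, 44495987 to 44814797, minus strand), the factor that commits cells to the lineage, had 155.86 and 237.82 estimated counts in control replicates 1 and 3. With verapamil it had 151.46, 163.06 and 126.87. The groups overlapped, since verapamil replicates 1 and 2 (7.45 and 8.42 CPM) lay above control replicate 1 (7.01 CPM) and below control replicate 3 (10.2 CPM). The log2 fold change, verapamil minus control, was -0.22 (SE 0.214, edgeR adjusted p = 0.464). It was -0.46 without control replicate 1 (adjusted p = 0.0634) and 0.07 without control replicate 3 (adjusted p = 0.755), so the sign rested on 1 control library. Runx2 shares 5.87% of its exon bases with Runx2os1 on the other strand, and whether reads were counted by strand is not given in the sources used here.

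Sp7 (Entrez 170574; chromosome 15, 102356603 to 102367035, minus strand), also called osterix, had 64.08 and 48 counts in the controls and 14, 10 and 13 with verapamil. Both controls were above all 3 verapamil libraries. Mean levels were 2.46 ± 0.588 CPM (SD, n = 2) and 0.615 ± 0.0888 CPM (SD, n = 3). On the log2 scale this was a difference of -1.99 (SE 0.282, edgeR adjusted p = 0.00477). The ratio of Sp7 to Runx2 counts was 0.411 and 0.202 in the controls, and 0.0924, 0.0613 and 0.103 with verapamil. The lineage's later factor was therefore lower in relation to the earlier one in every verapamil library, a difference that was not tested itself.

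RUNX proteins bind the letters AACCACA in the control regions of bone genes, and Runx2 is known to act on its own gene. These letters were searched on both strands (reverse: TGTGGTT) in the 250 bases before annotated starts, which the RefSeq table for GRCm38.p6 holds for 6 of the 10 genes (Alpl with 2 starts, Ibsp, Runx2, Cxcl12, Pdgfra and Tnfsf11). Only Runx2 had a match, 81 bases before one of its starts, in a stretch that GENCODE M21 also places in the first exon of a longer Runx2 transcript; 3.39% of 16569 such windows of the genes in the table had one. The match is shown in capitals, 5′ to 3′ on the minus strand, with its flanks (chr17:44814692-44814718).
Runx2 match: tgaggtcacaAACCACAtgattctgtc

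The matrix and mineralisation genes were at the low end of the counts with verapamil. Alpl (Entrez 11647; chromosome 4, 137741731 to 137796384, minus strand) encodes tissue-nonspecific alkaline phosphatase, which frees phosphate for mineral and is also known in neutrophils. It had 38 and 33 counts in the controls and 3, 0 and 3 with verapamil. The controls were close to each other, and the verapamil libraries were at or under the floor of 3 counts: the 0 of replicate 2 allows a level of up to 0.155 CPM. Summed over libraries and scaled for their sizes, Alpl was 15.5-fold higher in the controls, with an exact 95% binomial interval of 6.80 to 43.8 that covers counting error only. The fitted log2 fold change was -3.89 (SE 0.584, edgeR adjusted p = 0.00576).

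Ibsp (Entrez 15891; chromosome 5, 104299287 to 104311472, plus strand) encodes bone sialoprotein, an acidic glycoprotein of mineralised matrix. It had 15 and 24 counts in the controls, and 1, 0 and 2 with verapamil. Again no verapamil library came near a control. The control-to-verapamil ratio of the summed counts (39 against 3) was 17.1, with a counting interval of 5.43 to 86.4. The fitted difference was -3.94 on the log2 scale (SE 0.669, edgeR adjusted p = 0.00901), and it rests on so few verapamil counts that its size depends on the small constant edgeR adds.

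Bglap2 encodes osteocalcin, the small protein that osteoblasts secrete late in their maturation, and lies on chromosome 3 at 88377736 to 88378701 (Entrez 12097, minus strand) beside its copies Bglap (88383495 to 88384466) and Bglap3 (88368616 to 88372741). The coding sequences of Bglap and Bglap2 in GENCODE M21 are shown because they decide how far reads can tell the copies apart. Both are 285 bases long without the stop codon, and capitals mark the 4 positions at which they differ (5′ to 3′ on the coding strand).
Bglap coding sequence: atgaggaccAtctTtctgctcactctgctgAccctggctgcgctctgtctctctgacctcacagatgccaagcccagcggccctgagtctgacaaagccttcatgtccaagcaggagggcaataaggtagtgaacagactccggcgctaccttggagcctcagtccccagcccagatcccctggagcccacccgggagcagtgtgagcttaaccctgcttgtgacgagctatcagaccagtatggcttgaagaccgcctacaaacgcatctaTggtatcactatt
Bglap2 coding sequence: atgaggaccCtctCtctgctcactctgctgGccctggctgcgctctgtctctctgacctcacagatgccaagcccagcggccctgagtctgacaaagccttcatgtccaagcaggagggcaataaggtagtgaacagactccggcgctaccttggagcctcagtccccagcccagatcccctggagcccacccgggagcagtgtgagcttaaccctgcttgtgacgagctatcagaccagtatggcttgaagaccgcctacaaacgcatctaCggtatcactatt
They are 98.6% identical. Of all 50-base windows of the Bglap2 transcript, 88.2% also occur in a transcript of another copy, so the split of reads between Bglap2, Bglap and Bglap3 is uncertain, and their estimated counts are not whole.

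Bglap2 had 76.13 and 13.7 estimated counts in control replicates 1 and 3. With verapamil it had 6, 2.93 and 0. Most of the control signal came from replicate 1, although control replicate 3 also lay above all verapamil libraries. The log2 fold change was -3.68 (SE 1.02, edgeR adjusted p = 0.0441). Without control replicate 1 it was -1.95 (adjusted p = 0.128), and each fit that left out a verapamil library also lost the call (replicate 1, 0.0958; replicate 2, 0.127; replicate 3, 0.117, as adjusted p). Bglap had 9.34 and 10.75 counts in the controls and 0, 4.22 and 8 with verapamil, so its groups lay closer than those of Bglap2. Summed over the 3 copies, which does not depend on the split, there were 89.49 and 26.01 counts in the controls and 6, 10 and 8 with verapamil. That is a 6.35-fold higher summed level in the controls (counting interval 4.06 to 10.3), and 2.77-fold (1.53 to 5.05) without control replicate 1. It is smaller than the 13.1-fold (6.62 to 29.7) of Bglap2 alone.

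The pair of genes through which osteoblasts steer osteoclasts came next. Tnfsf11 (Entrez 21943; chromosome 14, 78277446 to 78308043, minus strand), which encodes RANKL, was nearly absent: 1.99 and 3 counts in the controls, and 2, 0 and 1 with verapamil. At 5 against 3 counts in all, the control-to-verapamil ratio of 2.19 had a counting interval from 0.426 to 14.1, and no difference was detectable at this depth. The RANKL that drove differentiation was added to the medium as protein and leaves no transcript.

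Tnfrsf11b (Entrez 18383; chromosome 15, 54250619 to 54278484, minus strand), the decoy receptor that binds RANKL, was measurable. Control replicates 1 and 3 had 55.99 and 122 counts, and the verapamil libraries 11, 9 and 8. Control replicate 3 was well above control replicate 1, and both were above every verapamil library. The level was 3.86 ± 1.90 CPM (SD, n = 2) in the controls and 0.467 ± 0.0734 CPM (SD, n = 3) with verapamil. The log2 fold change was -3.04 (SE 0.397, edgeR adjusted p = 0.00359). Leaving out either control gave -3.46 or -2.41, and each fit without a verapamil library kept the call. Tnfrsf11b passed the filter only through the controls, as did Alpl, Ibsp and Bglap2. A lower level was thus favoured by the filter, and the call is no support on its own.

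Cxcl12 (Entrez 20315; chromosome 6, 117168535 to 117181368, plus strand), the chemokine with which marrow stromal cells hold blood stem cells and other CXCR4-bearing cells, had the highest level of the 10 genes in the controls. Counts were 982.97 and 1096.98 in the controls and 190.99, 180.18 and 188 with verapamil. Within each group the libraries were close together, and the groups were far apart. Mean levels were 45.5 ± 1.88 CPM (SD, n = 2) and 9.32 ± 0.065 CPM (SD, n = 3). The log2 fold change, -2.29 (SE 0.101, edgeR adjusted p = 0.000407), had the smallest adjusted p of the 10, and its range over the leave-one-out fits was -2.32 to -2.24. Of all tested genes, 1.97% had a lower log2 fold change.

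The PDGF receptors, receptor tyrosine kinases that mark mesenchymal cells, fell by less. Pdgfra (Entrez 18595; chromosome 5, 75151322 to 75198206, plus strand), a marker of stromal progenitors and fibroblasts, had 467.95 and 744.96 counts in the controls and 272, 302 and 319 with verapamil. Control replicate 3 was well above control replicate 1, and both were above the verapamil libraries. The level was 26.4 ± 7.62 CPM (SD, n = 2) against 14.9 ± 1.32 CPM (SD, n = 3). The fitted difference was -0.83 on the log2 scale (SE 0.194, edgeR adjusted p = 0.026). Leaving out verapamil replicate 1, 2 or 3 ended the call (adjusted p = 0.107, 0.0817 and 0.0842), and the log2 fold change was -0.50 without control replicate 3. The ratio of Cxcl12 to Pdgfra counts was 2.10 and 1.47 in the controls and 0.702, 0.597 and 0.589 with verapamil, so the order of the pair turned. Pdgfra shares 6.5% of its exon bases with 3 other transcripts (Gm42802, Gm42803 and Mir7025).

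Pdgfrb (Entrez 18596; chromosome 18, 61045127 to 61085067, plus strand), the receptor of pericytes and of stromal cells around vessels, had 209.68 and 266.96 counts in the controls and 76, 69.98 and 73 with verapamil. The verapamil libraries were nearly equal and lay far below both controls. Mean levels were 10.4 ± 1.39 CPM (SD, n = 2) and 3.65 ± 0.0765 CPM (SD, n = 3). The fitted difference was -1.51 on the log2 scale (SE 0.15, edgeR adjusted p = 0.00144), and every leave-one-out fit kept the call. Reads of Pdgfra were 2.23 and 2.79 times those of Pdgfrb in the controls and 3.58 to 4.37 times with verapamil; this shift in the pair was not tested itself.

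**Figure D2:**
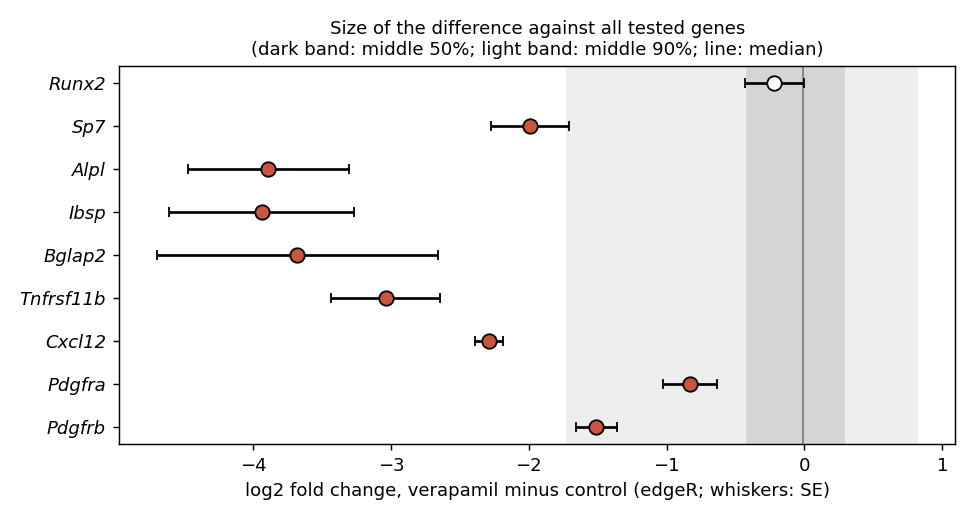
Log2 fold change of the 9 tested genes (verapamil minus control, edgeR; whiskers: SE; filled: adjusted p under 0.05) against all 12619 tested genes, whose middle 50% (-0.42 to 0.29) and middle 90% (-1.72 to 0.82) are shaded. Runx2 lies inside the dark band, Pdgfra and Pdgfrb inside the light band, and the other 6 below it.

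The order of the genes by level was taken per length, as mean CPM per kilobase of exon in the controls. Cxcl12 was first at 5.57, followed by Bglap2 at 4.25, which rested on control replicate 1 and on a transcript of 0.47 kb. Pdgfra (2.64), Pdgfrb (1.90) and Tnfrsf11b (1.37) came next, then Runx2 (0.971) and Sp7 (0.725). Ibsp (0.411) and Alpl (0.386) followed, and Tnfsf11 (0.0486) was last. Several neighbours overlapped between the controls: Bglap2 with Cxcl12 and Pdgfra, Pdgfrb with Tnfrsf11b, Tnfrsf11b with Runx2, Runx2 with Sp7, and Ibsp with Alpl. With verapamil Pdgfra (1.49) stood above Cxcl12 (1.14), followed by Runx2 (0.835) and Pdgfrb (0.666), and the other 6 were at 0.316 or less. In composition, Cxcl12 made up 47.5% and 42.3% of the reads of the 10 genes in the controls and 24.4% to 26.3% with verapamil, while Runx2 made up 7.54% and 9.18% and then 17.3% to 22.1%.

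The 2 control libraries did not rank the genes alike. Tnfrsf11b, Pdgfra and Runx2 were higher in control replicate 3, by 2.07-fold (counting interval 1.5 to 2.89), 1.51-fold (1.35 to 1.70) and 1.45-fold (1.18 to 1.79). Bglap2 was lower there, at 0.175 of the level of control replicate 1 (0.0914 to 0.312). Sp7 and Alpl (0.712 and 0.825) had intervals that included equal levels, as had Ibsp (1.52, 0.765 to 3.12). Cxcl12 was at 1.06 (0.972 to 1.16) and Pdgfrb at 1.21 (1.00 to 1.45). Among all tested genes the median of this ratio was 1.06, with 15% of genes above 1.5 and 10.1% below the inverse of 1.5. From the stromal marker list, and chosen after their values were seen, Grem1, a BMP antagonist, had 317.99 and 1705.5 counts in control replicates 1 and 3, and Thy1, a surface glycoprotein, had 52 and 7. The controls thus differed in stromal genes in both directions, although most markers of that list were higher in control replicate 3.

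**Figure D3:**
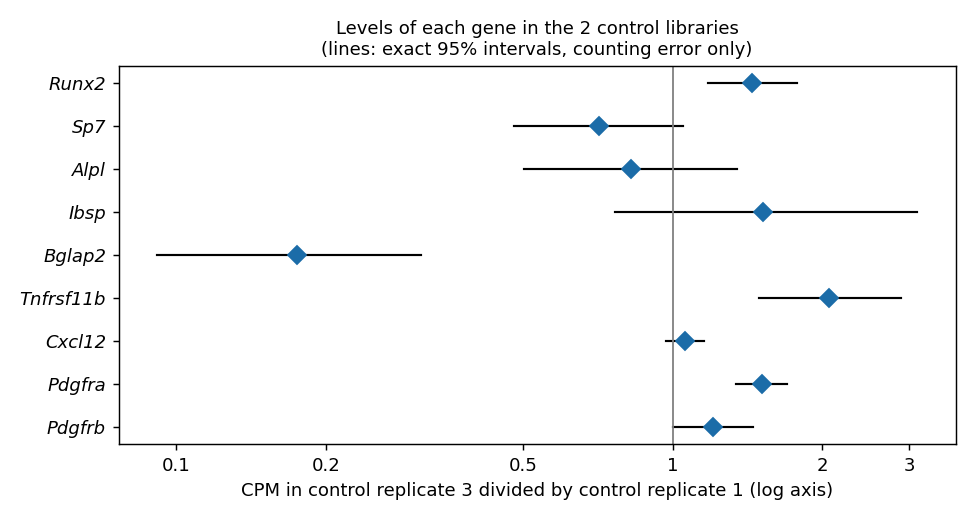
Level in control replicate 3 divided by that in control replicate 1 for 9 genes, on a log axis (lines: exact 95% binomial intervals, counting error only; Tnfsf11, with under 6 counts, is left out). Bglap2 lies far to the left at 0.175 and Tnfrsf11b to the right at 2.07, with Cxcl12 near 1.

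Genes around the 10 were taken from lists of the same lineages and pathways, and are given as counts and medians beside the median of all tested genes (-0.01). These lists, too, were chosen with earlier results of these data known. Of 12 tested osteoblast and mesenchymal transcription factors 6 were lower and 0 higher (median log2 fold change -1.19). In this and each later list with 0 higher, 0 were higher also at an unadjusted p under 0.05 and by DESeq2. Among them Twist2 and Twist1, which hold mesenchymal cells in an immature state, changed by -2.27 and -2.01 on the log2 scale (edgeR adjusted p = 0.00472 and 0.00315), and Dlx5, a homeobox factor of bone, by -1.96 (adjusted p = 0.0216). Twist2 and Dlx5 were among 3 of the 12 that passed the filter only through the controls. Of the other 9 there were 4 lower, against 13.4% of all tested genes over the filter in the verapamil libraries. The RUNX family in this list, chosen after its values were seen, was mixed: Runx3, a factor of blood cells, was lower at -0.93 (adjusted p = 0.0295), while Runx1 at 0.09 and Cbfb, the partner subunit of RUNX proteins, at -0.00 were not called (adjusted p = 0.701 and 0.991).

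Of 9 tested genes for bone matrix and mineralisation 5 were lower and 1 was higher (median -0.63). Sparc, Col1a1 and Col1a2, a matrix glycoprotein and the chains of type I collagen, were at -1.65, -1.47 and -1.15 (edgeR adjusted p = 0.000437, 0.000743 and 0.00127). Enpp1, which makes the mineral inhibitor pyrophosphate, was the gene called higher (0.94, adjusted p = 0.00257; chosen after its values were seen). Phospho1, likewise chosen after its values were seen, had 21.3 and 18.7 CPM in the controls and 26.1, 23.9 and 24.0 CPM with verapamil. It was higher at an unadjusted p under 0.05 but was not called (log2 0.30, edgeR adjusted p = 0.107). Dmp1 and Phex, genes of the mature osteocyte and also chosen after their values were seen, had at most 5 and 6.63 counts in any library and were not tested. Spp1, osteopontin, which osteoclasts also make, had 3034 ± 517 CPM (SD, n = 2) and 2257 ± 173 CPM (SD, n = 3) (log2 -0.43, adjusted p = 0.0665; chosen after its values were seen).

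Of 18 tested markers of marrow stroma and fibroblasts 12 were lower and 0 higher (median -1.45). Of the 18, 5 passed the filter only through the controls, Nt5e among them, and 8 of the other 13 were lower. Nt5e, Postn and Foxc1, an ectoenzyme, a matrix protein and a factor of CXCL12-rich stromal cells, were at -2.59, -2.04 and -1.94 (edgeR adjusted p = 0.017, 0.00149 and 0.00237). Lepr and Kitl, which also mark those stromal cells, were not called (log2 -0.59 and -0.04, adjusted p = 0.109 and 0.879; chosen after their values were seen). The summed level of the stromal list was 416.5 to 538.4 CPM in the controls and 246 to 263 CPM with verapamil. Of 8 tested pericyte and smooth muscle genes 7 were lower and 0 higher (median -2.01), and their list summed to 399.4 to 408.4 CPM and to 75.7 to 85.5 CPM. Of these 8, Cspg4 and Myh11 passed only through the controls, and 5 of the other 6 were lower. The contractile genes Cnn1 and Acta2 and the proteoglycan gene Cspg4 were at -2.89, -2.51 and -2.45 (adjusted p = 0.00107, 0.000407 and 0.017). The stromal count of 12 was 7 without verapamil replicate 1.

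In the partners of RANKL, osteoprotegerin and CXCL12, 5 of 8 tested genes were lower and 1 was higher (median -0.91). Tnfsf10, the death ligand that osteoprotegerin also binds, was at -1.84, Il34, a ligand of the M-CSF receptor, at -1.39, and Lgr4, a further receptor of RANKL, at -1.24 (edgeR adjusted p = 0.0145, 0.00883 and 0.0359). Tnfsf10 and Ackr3, a receptor of CXCL12, passed the filter only through the controls. Of the other 6 genes 4 were lower, against 13.4% of all tested genes over the filter in the verapamil libraries. Receptors were chosen after their values were seen. Of the CXCL12 receptors, Cxcr4 rose from 119 ± 2.16 to 200 ± 8.31 CPM (SD, n = 2 and 3; log2 0.75, adjusted p = 0.00315). Ackr3, the scavenging receptor of CXCL12, had 0.674 and 0.854 CPM in the controls and 0.492, 0.465 and 0.296 CPM with verapamil, and was not called (log2 -0.87, adjusted p = 0.13). Tnfrsf11a, the RANK receptor itself, had a log2 fold change of -0.44 (adjusted p = 0.043). The lower count of 5 was 1, 3 and 2 without verapamil replicates 1, 2 and 3. Of 6 tested PDGF ligands and co-receptors 3 were lower and 0 higher (median -0.78): Pdgfd, Pdgfb and Pdgfc were at -1.05, -1.03 and -0.53 (adjusted p = 0.0337, 0.00121 and 0.0129). That count was 1 without verapamil replicate 1, 2 or 3. Of the 6 PDGF genes 1 passed the filter only through the controls, and 3 of the other 5 were lower.

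Markers of other cell types moved with the same contrast. Of 10 osteoclast markers 7 were lower and 1 higher (median -1.58), with Ocstamp, Acp5 and Mmp9, which serve fusion and resorption, at -2.00, -1.85 and -1.81 (edgeR adjusted p = 0.000543, 0.000437 and 0.000437), and Atp6v0d2, the proton pump subunit that rose, at 0.98 (adjusted p = 0.00159; chosen after its values were seen). Of 8 macrophage markers 6 were lower and 0 higher (median -0.77), and their summed level was 5368 to 5387 CPM in the controls and 3914 to 3978 CPM with verapamil. The complement gene C1qa, the chemokine receptor gene Cx3cr1 (over the filter only through the controls) and the Fc receptor gene Fcgr1 were at -2.63, -2.46 and -2.36 (adjusted p = 0.000669, 0.00339 and 0.000437). The part of these shifts in the lower stromal levels was not tested. In bulk RNA, fewer cells that make the stromal RNAs and less RNA per such cell cannot be told apart. Which cells made these RNAs was not tested.

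Markers of further cell types were measured, and their part in the levels of the 10 genes was not tested. Neutrophils carry Alpl too. Their markers summed to 5.68 to 9.51 CPM in the controls and 3.36 to 4.48 CPM with verapamil; of 3 tested 1 was lower (S100a9, a calcium-binding protein that passed the filter only through the controls, -2.52, adjusted p = 0.00962). Lymphocytes can make RANKL. Of their list 4 of 10 markers were in the table, with a summed level of 210 to 298 CPM in the controls and 393 to 426 CPM with verapamil, nearly all of it Cd4. Of 3 tested the 1 called was Cd4 (0.69, adjusted p = 0.0267), the co-receptor of helper T cells, and it was not called without verapamil replicate 1, 2 or 3. The endothelial list summed to 8.09 to 11.4 CPM in the controls and 28.2 to 33.9 CPM with verapamil. Nearly all of the verapamil sum was Kdr, at 27.3, 32.3 and 30.7 CPM, against 2.97 and 5.38 CPM in the controls. Of 4 tested markers Pecam1, Emcn and Egfl7 were lower (-3.00, -1.89 and -1.58) and Kdr was higher (2.84; adjusted p = 0.0142, 0.0236, 0.0493 and 0.00118), Egfl7 being chosen after its values were seen, while the defining genes Tek, Cldn5 and Tie1 had at most 4 counts in a library. Cdh5, the cadherin of endothelial junctions, had 6 and 23.73 counts in the controls and 7, 4.99 and 6 with verapamil. Pecam1 and Egfl7 passed the filter only through the controls, and 1 endothelial gene was lower without verapamil replicate 1, 2 or 3. Of the adipocyte list Cfd was at 0 in all 5 libraries and Adipoq, Plin1 and Cidec had at most 3 counts, and of the 2 tested the lipase gene Lpl was lower (-1.35, adjusted p = 0.00398), which macrophages express too. Lpl made up most of that list's sum of 1452 to 2126 CPM in the controls and 803 to 885 CPM with verapamil. Of 2 tested plasmacytoid dendritic cell markers 0 were called by edgeR, 0 at an unadjusted p under 0.05 and 0 by DESeq2, and Siglech had at most 2.67 counts in a library.

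The 3 of the 10 genes with the highest mean CPM over all 5 libraries were Cxcl12, Pdgfra and Runx2, although Pdgfrb was above Runx2 in both controls. The genes most like these 3 were found by the distance between their centred log2 CPM profiles over the 5 libraries, in log2 units. Nearest to Cxcl12 were Pgf, a growth factor gene, at 0.11, Dkk3, which encodes a secreted protein of the Dickkopf family, at 0.181, and Tagln, an actin-binding gene of contractile cells, at 0.19. Dkk3 had 61.5 and 61.7 CPM in the controls and 13.3 to 14.5 CPM with verapamil. Nearest to Pdgfra were Pde4b, a cAMP phosphodiesterase gene, at 0.0746, 4930486L24Rik at 0.0822 and Cacna1d, which encodes the pore of an L-type calcium channel, at 0.0925. Nearest to Runx2 were Fam222a at 0.0737, Kcnj10, a potassium channel gene, at 0.125 and Acot2, an acyl-CoA thioesterase gene, at 0.127. The Pdgfra and Runx2 sets share the higher level in control replicate 3, and the Cxcl12 set does not. That follows from picking the sets by these same profiles. Pgf and 4930486L24Rik were rare with verapamil, at no more than 0.345 and 0.3615 CPM.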

How the data were processed

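The authors deposited 1 table of estimated counts of reads per gene, which the values show to be without normalization; the submitters' processing notes name the builds GRCm38 and mm10, while aligner, counting program and strand setting were not given in the sources used here. Per the labels' protocols, Trizol RNA (1.3 ug) went into a SMARTER mRNA kit. Library columns were matched to samples by the codes in the sample descriptions. Counts were rounded and fitted in R 4.3.3 with edgeR 4.0.16 (quasi-likelihood test, TMM, default expression filter with minimum count 10 and minimum total 15, no covariate). The fit covered 12619 genes with 3 residual degrees of freedom, the biological coefficient of variation was 15.3%, and p-values were Benjamini-Hochberg adjusted over all tested genes. SEs were derived from each gene's fold change and its F statistic. Scripts were tested on simulated data. Intervals of count ratios are exact 95% binomial intervals, from SciPy 1.17.1. Positions are from RefSeq (GRCm38.p6), exons and transcripts from GENCODE M21. DESeq2 1.42.0, upper quartile factors, other filters, a replicate block and leaving out each library were the alternatives. The 10 genes and all lists were chosen with earlier results of these data known. Genes named were the 10, up to 3 called genes of each list with the largest change, and the nearest profiles of 3 genes. Others are marked as chosen after their values were seen. Bglap, Bglap3, Myh11, Cdh5, Tek, Cldn5, Tie1, Cfd, Adipoq, Plin1, Cidec and Siglech were also outside this rule but carry no mark.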

Additional observations from a re-analysis of the deposited data

How the results depend on the processing

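The 145 counts of calls obtained with all 5 libraries kept stayed within 1.5 times their main value: with upper quartile factors, DESeq2's Wald test, no filter, a filter of 20 counts (30 in total) and the replicate block. For the 10 genes the count of lower calls was 8 in each of these except the stricter filter (6, since Ibsp and Bglap2 were no longer tested). With upper quartile factors the all-gene median was -0.13, against -0.01 with TMM, and the 8 lower genes were the same 8. Replicate numbers are shared by the groups, but the labels do not say what a number stands for. The difference between replicates 1 and 3 correlated across genes between the groups at 0.186, from 2 pairs. A fit with the replicate block gave 3317 called genes and 8 lower among the 10. Verapamil replicate 2 had no control partner in that fit, so the contrast rested on replicates 1 and 3 of each group. The block fit also had fewer residual degrees of freedom than the main fit.

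Leaving out 1 library at a time moved more. All genes called ranged from 1460 to 7808. Runx2 ranged from -0.46 without control replicate 1 to 0.07, a change of sign, without control replicate 3. Of 88 alternative values of the 9 tested genes, 80 kept direction and side of the threshold, 7 lost the call (4 for Bglap2, 3 for Pdgfra) and 1 reversed. Ranges of lower calls were 7 to 15 for stromal markers, 1 to 5 for RANKL, OPG and CXCL12 partners, 1 to 3 for PDGF ligands, 1 to 3 for endothelial, 1 to 2 for neutrophil and 0 to 1 for plasmacytoid dendritic cell markers. Ranges of higher calls were 0 to 1 for osteoblast transcription factors, stromal, macrophage and lymphocyte markers and PDGF ligands, and 1 to 2 for bone matrix genes, RANKL partners and osteoclast markers. Fits without a control hold no spread between controls and assume that the lone one varies like the verapamil group; fits without a verapamil library have fewer residual degrees of freedom. The summed level of the 10 genes with verapamil was 36.7 CPM, and 34.9 CPM from raw library totals. The ratio of the summed Bglap copies without each library, added after seeing the data, ranged from 2.77 to 10.00. Depth limits Tnfsf11, and the sizes for Alpl, Ibsp and Bglap2.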
